A study of Mus musculus with 4 samples.

Results

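The genes described here are those of 7 solute carrier families that move amino acids and related small solutes across membranes: SLC1, SLC3, SLC6, SLC7, SLC36, SLC38 and SLC43. They were chosen by gene symbol, leaving out the cystine carrier gene Slc7a11, and 65 of the 27179 rows of the deposited count table matched. The choice was by name alone, so it took in 3 genes named for lying opposite a carrier gene and some carriers of other solutes, such as the creatine carrier gene Slc6a8, the dopamine carrier gene Slc6a3 and the nucleobase carrier gene Slc43a3. The RNA came from mAEC, a line of murine aortic endothelial cells, in 2 groups of 2 libraries, biological replicates by the series' design text. Control cells were kept in normal medium. The other group received conditioned medium, the supernatant of TNFα+CD68+ macrophages. TNFα is an inflammatory cytokine and CD68 a macrophage marker. The labels give no exposure time, no dilution and no control supernatant of other cells, so secreted factors and any use of nutrients by the macrophages cannot be told apart.

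Amino acid carriers work as a network. Sodium-driven carriers of system A (the SLC38 genes Slc38a1, Slc38a2 and Slc38a4) load small neutral amino acids such as glutamine and alanine. Obligatory exchangers then trade these for large neutral amino acids, above all system L, in which the light chain LAT1 (Slc7a5) pairs with the heavy chain CD98 (Slc3a2). Cationic carriers such as CAT1 (Slc7a1) bring in arginine, the substrate from which endothelial cells make nitric oxide. Many of these genes are known targets of the transcription factor ATF4, which responds to amino acid shortage.

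Library totals ran from 13815695 to 18005840 counts, and 3 counts, the limit that a count of 0 allows, equalled 0.166 to 0.216 CPM (counts scaled to library size and composition). Endothelial markers were abundant, with 10 genes summing to 6754 and 6775 CPM in control and 6806 and 6731 CPM in conditioned medium. Most of that sum was Pecam1, at 2384 to 2443 CPM, and Cdh5, while Vwf was low, at 2.30 to 3.49 CPM. Within the list Eng rose (log2 fold change 0.32) and Robo4, Kdr and Emcn fell (-0.35, -0.16 and -0.13; edgeR adjusted p at most 0.0298 for these 4), and their part in the changes of the carriers was not tested. Of 10 macrophage markers Adgre1, Mrc1, C1qa and Tyrobp had no count in any library, and the summed level of the list was 230.3 and 260.0 CPM in control and 253 and 260.2 CPM in conditioned medium, nearly all of it Cd68. In bulk RNA, fewer cells of a type and less RNA per cell cannot be told apart.

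RNA of part of these carriers was detected in the aortic endothelial cells. Of the 65 members, 23 had no count in any library. A further 15 were detected below the filter on low counts, and 27 were abundant enough to test. In the whole count table, 7817 of 27179 rows had no count in any library and 13897 were tested. Among those with no count were Slc7a2, the cationic carrier CAT2, Slc1a1 and Slc1a3, which carry glutamate, Slc38a5, a glutamine carrier of system N, and Slc6a14, a carrier of neutral and cationic amino acids. Slc7a8, the alternative light chain LAT2, held 0 and 0 counts in control and 1 and 1 in conditioned medium, and Slc43a1, the system L carrier LAT3, held 2 and 1 against 0 and 0. SLC6 was the family with the most rows at 0, with 12 of 22, and 4 of its members were tested. Of the 11 SLC38 rows 7 were tested.

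Levels between genes were compared as CPM per kilobase of exon. Slc43a3 and Slc38a2 stood at the top, and their order differed between the groups. Slc43a3 had 109 and 113 CPM per kilobase in control and 99.8 and 97.4 in conditioned medium, and Slc38a2 had 93.4 and 90.3 in control and 110.1 and 107 in conditioned medium. Slc3a2 came next at 49.8 to 54.5 CPM per kilobase. Its library range did not reach that of either neighbour. Slc38a10, Slc38a4, Slc1a5 and Slc6a6 followed with means of 13.7 to 18.8, and the ranges of neighbours in that order overlapped over the libraries. Slc7a5 stood at 5.80 to 7.42 CPM per kilobase, 0.144 and 0.145 of the level of its heavy chain in control and 0.114 and 0.111 in conditioned medium. Exon lengths are those of all annotated exons together, which lowers the level per kilobase of genes with long alternative ends, such as Slc38a1 and Slc38a9.

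**Figure D1:**
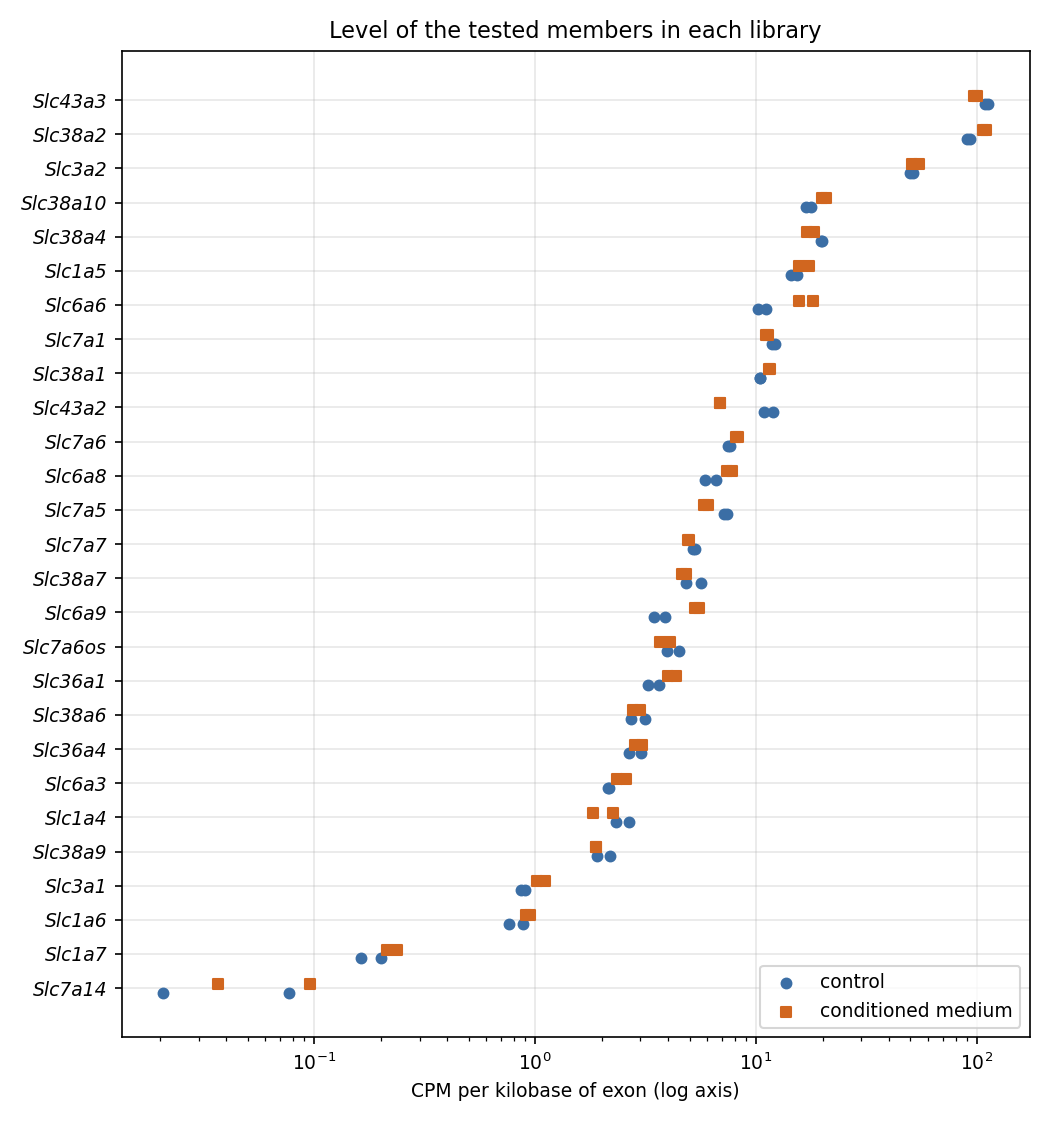
Level of the 27 tested members in each library as CPM per kilobase of exon on a log axis, with circles for the 2 control and squares for the 2 conditioned medium libraries, ordered by the mean over all libraries. Slc43a3 and Slc38a2, with means of 105 and 100.1 CPM per kilobase, swap places between the groups, and the other differences between groups are small against the span of levels.

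Conditioned medium was compared with control to find which carriers changed. Taurine and glycine carrier genes rose most and the system L carrier gene Slc43a2 fell most: Slc6a6 was 1.58-fold higher, Slc6a9 was 1.47-fold higher and Slc43a2 was 1.66-fold lower. The abundant system A gene Slc38a2 rose 1.18-fold and Slc7a5 fell 1.23-fold. At an adjusted p under 0.05 in the two-sided quasi-likelihood test of edgeR, 9 of the 27 tested members were called, 6 higher and 3 lower. Over all 13897 genes tested 16.8% were called, 8.53% higher and 8.23% lower. The members' share was 33.3%, and their median log2 fold change was 0.12 against 0.00 over all genes. Well-counted genes are called more often, and at a mean of at least 10 CPM 9 of 21 members were called, where 21.1% of all such genes were. The groups did not overlap in 21 of the 27 members, where 57.2% of all genes tested had groups that did not overlap. The members were 7 of 23, 5 higher and 2 lower, when counted without the carriers of other solutes and Slc7a6os. Without conditioned medium replicate 1, and likewise without replicate 2, the test called 3 members, Slc43a2, Slc6a6 and Slc6a9, the spread then resting on the control pair, and it called 808 and 569 of all genes.

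**Figure D2:**
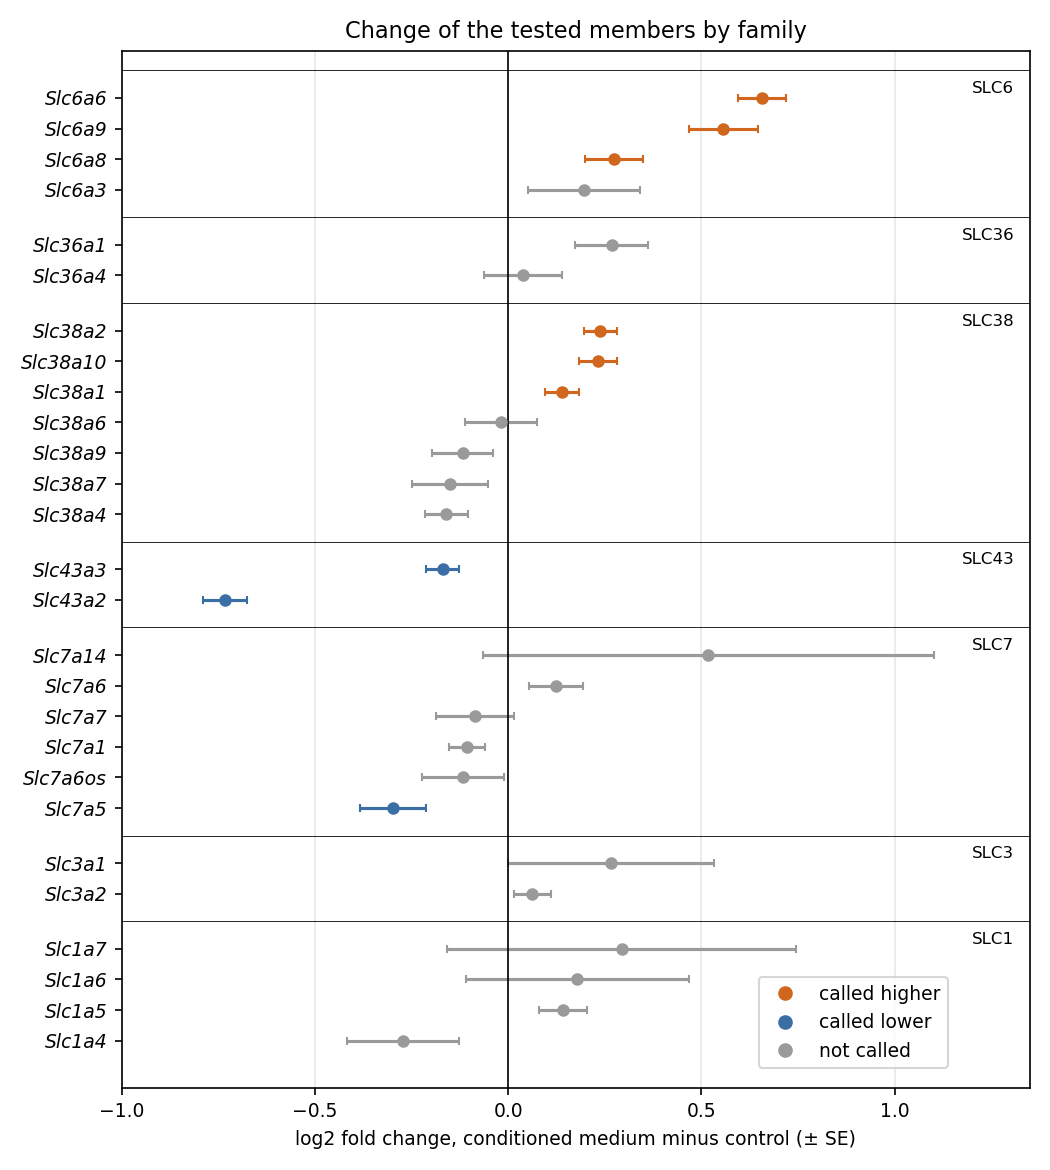
Log2 fold change of each tested member, conditioned medium minus control, with its SE, grouped by family. Orange marks the 6 called higher, blue the 3 called lower and grey the 18 not called. SLC6 members all lie to the right of 0 and both SLC43 members to the left.

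Among the large neutral amino acid carriers, both system L genes abundant enough to test were called lower. Over all genes tested 8.23% were called lower, and the systems were assigned with the values known. Slc43a2 encodes LAT4, which passes branched-chain amino acids and phenylalanine by facilitated diffusion and needs no heavy chain. It was at 109 and 120.2 CPM in control and at 69.0 and 68.9 CPM in conditioned medium. Both treated libraries lay far below both controls, the log2 fold change was -0.73 with an SE of 0.06 (edgeR adjusted p = 1.95e-08; later values after ± are SEs too), and the gene was called in all 13 alternatives tried for it. Slc7a5 was at 26.5 and 27.5 CPM in control and 21.5 and 22.4 CPM in conditioned medium, with no overlap (log2 fold change -0.30 ± 0.08; edgeR adjusted p = 0.0183). It was not called by DESeq2 (adjusted p = 0.219) or without conditioned medium replicate 1 or 2 (edgeR adjusted p = 0.178 and 0.134). The 4 system L genes together summed to 18.03 and 19.4 CPM per kilobase in control and to 12.7 and 12.9 in conditioned medium. Nearly all was Slc43a2 and Slc7a5, with means of 11.4 and 7.29 CPM per kilobase in control and 6.87 and 5.92 in conditioned medium.

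The shared heavy chain was not called. Slc3a2 was at 176 and 180.4 CPM in control and 179 and 192 CPM in conditioned medium, and the groups overlapped (log2 fold change 0.06, 95% interval -0.04 to 0.16; edgeR adjusted p = 0.411). Slc7a6 and Slc7a7, the y+L light chains that pair with the same heavy chain and exchange cationic for neutral amino acids, had log2 fold changes of 0.12 ± 0.07 and -0.09 ± 0.10 and were not called. The span of Slc7a7 overlaps that of Oxa1l, so reads of the pair may be shared. Slc3a1, the heavy chain of the cystine and cationic exchanger of epithelia, was low, at 1.96 to 2.53 CPM, overlaps Prepl, and was not called.

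The starting sites of some called genes can be read beside these values. The RefSeq table of promoter windows, 250 bases before to 50 after a start on GRCm38.p6, held windows for 21 of the 27 tested members and 4 of the 9 called. They are shown for the steepest fall, Slc43a2 (chr11:75531444-75531743, plus strand), for Slc6a9, a gene that rose (chr4:117835008-117835307, plus strand), and for Slc38a2, the carrier with the highest level among those that rose (chr15:96699679-96699978, minus strand), each at its most upstream start in that table. The annotated span of Slc43a2 begins further upstream, at 75529915. Capitals mark matches to the motifs searched.
Slc43a2: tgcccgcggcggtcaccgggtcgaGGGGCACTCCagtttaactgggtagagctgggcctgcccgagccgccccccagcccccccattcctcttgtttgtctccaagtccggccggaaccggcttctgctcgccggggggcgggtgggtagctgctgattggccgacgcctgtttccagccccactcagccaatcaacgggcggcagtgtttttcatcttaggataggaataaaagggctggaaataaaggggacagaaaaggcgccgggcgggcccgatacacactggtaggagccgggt
Slc6a9: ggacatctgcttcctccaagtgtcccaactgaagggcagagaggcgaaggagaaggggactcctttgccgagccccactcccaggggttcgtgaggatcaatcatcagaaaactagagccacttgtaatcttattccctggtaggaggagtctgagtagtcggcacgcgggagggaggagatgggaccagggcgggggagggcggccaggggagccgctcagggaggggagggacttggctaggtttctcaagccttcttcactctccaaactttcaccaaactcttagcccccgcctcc
Slc38a2: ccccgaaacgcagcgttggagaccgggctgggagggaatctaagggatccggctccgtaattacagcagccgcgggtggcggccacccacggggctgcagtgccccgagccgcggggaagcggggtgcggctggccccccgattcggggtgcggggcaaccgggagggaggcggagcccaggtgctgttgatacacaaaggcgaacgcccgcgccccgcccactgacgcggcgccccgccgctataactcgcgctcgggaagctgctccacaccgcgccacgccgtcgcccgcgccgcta
The motifs were TGATGNAA, the core of the amino acid response element that ATF4 binds, CACGTG, the E-box, ACGTG, the core of the hypoxia response element, which also lies within the E-box, and the NF-kB motif, on both strands. The capitals in Slc43a2 are an NF-kB match that begins 226 bases before that start; 8.46% of all 32851 windows hold one. The windows of Slc6a9 and Slc38a2 hold no match. Sequence outside the windows, such as introns, was not searched, so a motif elsewhere in these genes would have been missed. TGATGNAA was in 3.97% of all windows and in those of 2 of the 21 tested members, Slc1a4 and Slc7a7, neither of which was called. ACGTG was in 19.6% of all windows and in those of 10 of the 21 members, among the called ones Slc38a10. CACGTG was in 7.15% of all windows and in those of 6 of the 21 members, none of them called. The NF-kB motif was in those of 4 of the 21, among the called ones Slc43a2. A member with several windows was counted if any of them matched, so these counts of members cannot be set against the shares of windows. A match is a description of the letters and not evidence of binding.

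Of the 7 SLC38 genes tested 3 were called higher and 0 lower, where 8.53% and 8.23% of all genes tested were. The other 4 had negative log2 fold changes, and the family median was -0.02. Slc38a2 encodes SNAT2, the system A carrier known to be raised by amino acid shortage and by hypertonic medium. It was at 826 and 798 CPM in control and 973 and 944 CPM in conditioned medium (log2 fold change 0.24 ± 0.04; edgeR adjusted p = 4.37e-04). Slc38a1, which encodes SNAT1, was at 179.7 and 179 CPM against 197 and 199 CPM, a narrow rise of 1.10-fold that the replicates separated (edgeR adjusted p = 0.0322). Slc38a10, a less studied member, rose from 113 and 108 CPM to 133 and 128 CPM (log2 fold change 0.23 ± 0.05; edgeR adjusted p = 0.00251).

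The third system A gene was not called. Slc38a4, SNAT4, was at 84.0 and 84.6 CPM in control and 72.6 and 78.1 CPM in conditioned medium (log2 fold change -0.16 ± 0.05; edgeR adjusted p = 0.0521), and was called with a replicate block and with a robust spread (adjusted p = 0.0311 and 0.0424). Slc38a1, Slc38a2 and Slc38a4 lie in a row on chromosome 15, between 96571418 and 97055956 on GRCm38. System A summed to 124 and 121 CPM per kilobase in control and 139 and 137 in conditioned medium, most of it Slc38a2. Without conditioned medium replicate 1 or 2 the calls were lost for Slc38a2 (edgeR adjusted p = 0.0969 and 0.0653), Slc38a10 (0.105 and 0.0592) and Slc38a1 (0.230 and 0.304), with DESeq2 also for Slc38a1 (adjusted p = 0.211) and for Slc38a1 with no count filter (edgeR adjusted p = 0.0540).

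**Figure D3:**
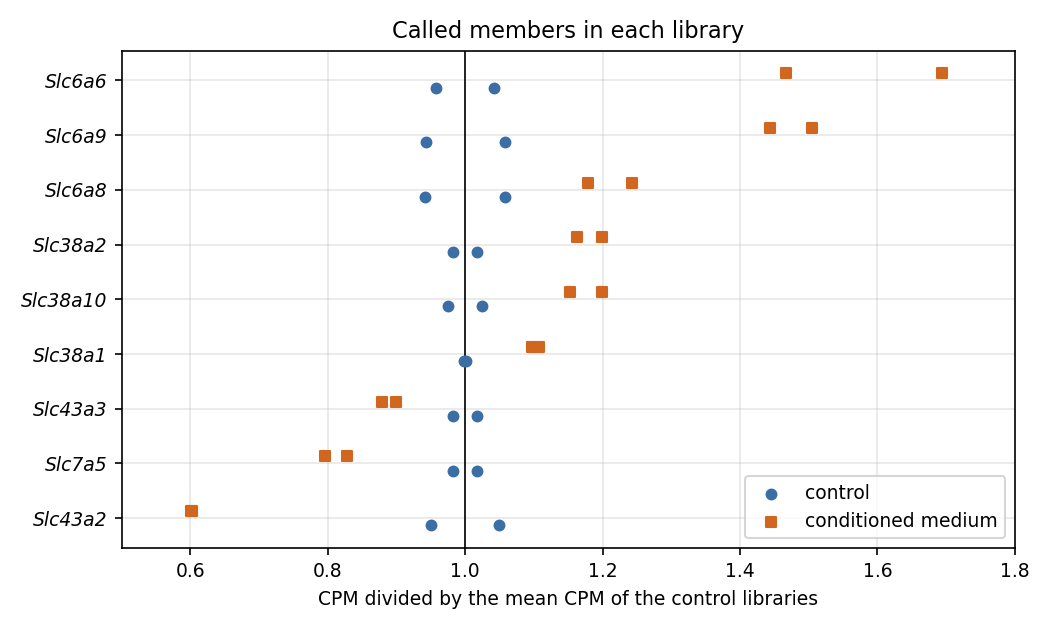
CPM of the 9 called members in each library divided by the mean of the control libraries, with circles for control and squares for conditioned medium. The groups overlap in none of these members, which were picked by their calls in the same libraries. Over all genes tested 57.2% had groups that did not overlap. Slc43a2 lies lowest at 0.602 in both treated libraries, and Slc6a6 is the most spread, at 1.69 and 1.47.

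In SLC6, the family of sodium and chloride driven carriers, 3 of the 4 tested members were called higher. Over all genes tested 8.53% were called higher, and of the 9633 genes at a mean of at least 10 CPM 968 were. Slc6a6 encodes the taurine carrier, which takes up the osmolyte taurine. It was at 93.9 and 86.3 CPM in control and 153 and 132 CPM in conditioned medium (log2 fold change 0.66 ± 0.06; edgeR adjusted p = 3.53e-07). Slc6a9 encodes GlyT1, a glycine carrier, and was at 17.8 and 20.0 CPM against 28.4 and 27.3 CPM (log2 fold change 0.56 ± 0.09; edgeR adjusted p = 1.80e-04). Treated and control libraries of both genes were clearly apart, and both were called in all 13 alternatives tried. Slc6a9 overlaps Ccdc24, whose counts were 61 and 92 in control and 75 and 69 in conditioned medium.

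Slc6a8, the creatine carrier, rose from 30.6 and 34.4 CPM to 40.4 and 38.4 CPM (log2 fold change 0.27 ± 0.08; edgeR adjusted p = 0.0160). It lost that call by DESeq2 (adjusted p = 0.182), without control replicate 1 (edgeR log2 fold change 0.19, adjusted p = 0.110) and without conditioned medium replicate 1 or 2 (0.196 and 0.119). Slc6a3, the dopamine carrier of neurons, was detected in every library, with 110 and 108 counts in control and 124 and 147 in conditioned medium, and was not called (log2 fold change 0.20, 95% interval -0.11 to 0.50).

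The main carriers of glutamine, serine and arginine outside SLC38 were not called. Slc1a5, ASCT2, an exchanger known for glutamine uptake, was at 60.2 and 64.0 CPM in control and 72.3 and 65.2 CPM in conditioned medium. The groups were separate by a narrow gap and the gene was not called (log2 fold change 0.14 ± 0.06; edgeR adjusted p = 0.126; 0.0333 without control replicate 2). Slc1a4, the serine and alanine exchanger ASCT1, was at 9.14 and 10.4 CPM against 7.21 and 8.81 CPM (edgeR adjusted p = 0.224). Slc7a1 was at 137 and 141 CPM in control and 130.4 and 128 CPM in conditioned medium, a log2 fold change of -0.11 with a 95% interval of -0.21 to -0.01 (edgeR adjusted p = 0.137). Nos3, the endothelial synthase that uses arginine, went from 442 and 469.5 CPM to 583 and 577 CPM (edgeR adjusted p = 1.13e-05). The glutamate carrier genes Slc1a6 and Slc1a7 were low, at 1.64 to 2.05 and 0.547 to 0.794 CPM, with 95% intervals of the log2 fold change from -0.42 to 0.78 and from -0.65 to 1.24.

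Carriers of the lysosome, from which amino acids are returned to the cytosol and sensed by the kinase complex mTORC1, were not called. Slc36a1, the proton-coupled carrier PAT1, came nearest, with 20.5 and 18.2 CPM in control and 24.3 and 22.4 CPM in conditioned medium (log2 fold change 0.27 ± 0.10; edgeR adjusted p = 0.0591), and was called without control replicate 1 (0.0122), with upper-quartile scaling (0.0483) and with a replicate block (0.0330). Slc38a9, the lysosomal arginine sensor, had a log2 fold change of -0.12 (95% interval -0.28 to 0.05). Slc38a7, a lysosomal glutamine carrier, was at -0.15 (-0.36 to 0.06). Slc36a4, of the same family as Slc36a1, was at 0.04 (-0.17 to 0.25).

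The remaining tested members were of other kinds. Slc38a6 had a log2 fold change of -0.02 (95% interval -0.21 to 0.18), and its span overlaps that of Trmt5, so reads of the pair may be shared. Slc43a3, a nucleobase carrier by later work despite its family, fell from 486 and 504 CPM to 446 and 435 CPM (log2 fold change -0.17 ± 0.04; edgeR adjusted p = 0.00816), a call lost without conditioned medium replicate 1 or 2 (0.149 and 0.262). Slc7a6os, which codes for a protein that is not a membrane carrier and lies next to Slc7a6, had a log2 fold change of -0.12 ± 0.11. Slc7a14 had 3 and 11 counts in control and 5 and 17 in conditioned medium, too few to give a direction (95% interval of the log2 fold change -0.70 to 1.74).

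**Figure D4:**
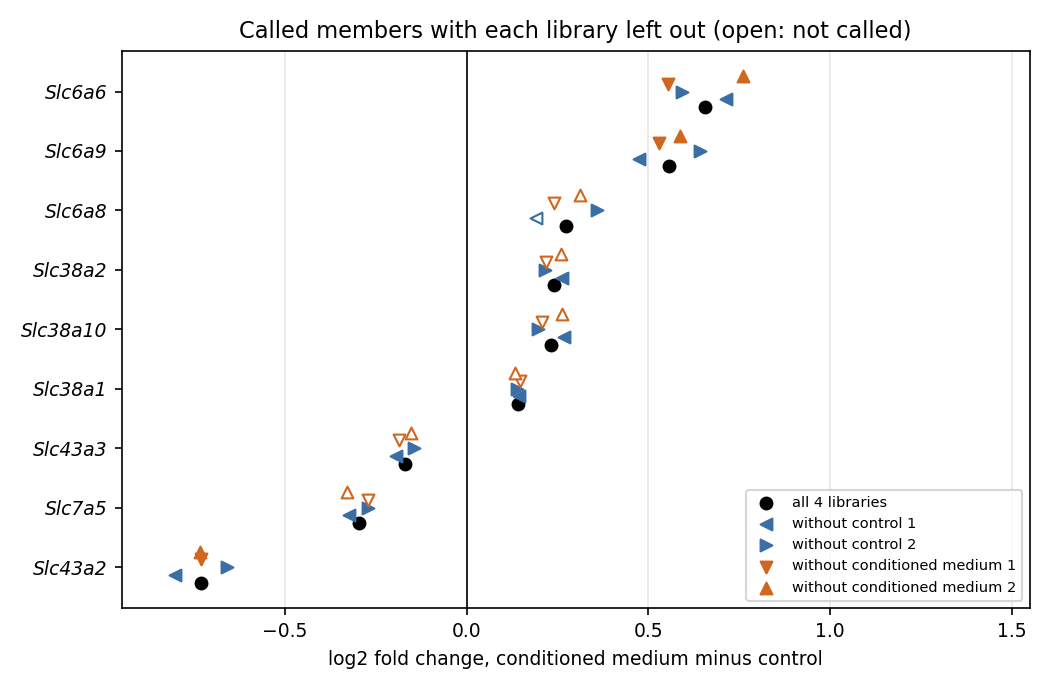
Log2 fold change of the 9 called members with all 4 libraries (circles) and with each library left out (triangles); open symbols were not called. Directions held in each case, and Slc43a2, Slc6a6 and Slc6a9 were called in each.

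Genes that sense, make or use amino acids were read from the same test. Of 32 sensing and shortage response genes tested, 6 rose and 2 fell, with a median log2 fold change of 0.00. That is 25% called, beside 16.8% of all genes and 21.1% of those at 10 CPM or more. Sesn1, a sestrin that restrains mTORC1, fell from 29.9 and 32.7 CPM to 15.9 and 16.3 CPM (edgeR adjusted p = 3.02e-07). Castor1, a cytosolic arginine sensor, rose from 6.70 and 7.12 CPM to 10.2 and 9.92 CPM (edgeR adjusted p = 0.0104), and Nprl2, a subunit of the GATOR1 complex that inhibits mTORC1, from 7.72 and 7.66 CPM to 10.8 and 10.7 CPM (edgeR adjusted p = 0.0173). The other genes that rose were Cebpb, Ddit4, Rraga and Rptor, by 0.21 to 0.38 on the log2 scale, and Eif2s1, a subunit of the initiation factor that shortage inhibits, fell by 0.15. Atf4 was at 139 and 138 CPM in control and 124 and 140.4 CPM in conditioned medium and was not called (edgeR adjusted p = 0.456). Castor1 and Nprl2 lost their calls by DESeq2 (adjusted p = 0.151 and 0.211) and without conditioned medium replicate 1 (edgeR adjusted p = 0.105 and 0.125) or 2 (0.111 and 0.159). Over the alternatives the highest adjusted p was 0.438 for Cebpb (DESeq2; log2 fold change 0.14 without conditioned medium replicate 2, adjusted p = 0.429), 0.212 for Ddit4 (without conditioned medium replicate 2), 0.344 for Rraga (without control replicate 2, log2 fold change 0.10), 0.155 for Rptor (without conditioned medium replicate 2) and 0.363 for Eif2s1 (without conditioned medium replicate 1). DESeq2 called none of these 5. Rptor was also not called without conditioned medium replicate 1, nor Rraga without either conditioned medium library, nor Eif2s1 without control replicate 1 or conditioned medium replicate 2. With a robust spread Cebpb and Rraga were not called (edgeR adjusted p = 0.408 and 0.0526), and with no count filter Rraga and Eif2s1 were not (0.0685 and 0.0614). The list's calls were 3 without conditioned medium replicate 1, 1 without replicate 2 and 1 by DESeq2.

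Of 28 enzymes of amino acid metabolism tested, 0 rose and 8 fell, though the median log2 fold change was 0.02. Over all genes 8.53% were called higher and 8.23% lower. Of the 9633 genes at a mean of at least 10 CPM, 968 were called higher and 1068 lower. Shmt1, which interconverts serine and glycine, fell from 15.9 and 18.3 CPM to 10.8 and 9.98 CPM (edgeR adjusted p = 1.93e-04). Asns, which makes asparagine, was at -0.42 ± 0.07 and Ass1, which makes the arginine precursor argininosuccinate, at -0.37 ± 0.11 (edgeR adjusted p = 1.58e-04 and 0.0303). Among the others that fell were Odc1, Glul, Glud1 and Phgdh, by 0.18 to 0.33 on the log2 scale, and these serve polyamine, glutamine, glutamate and serine metabolism. Arg2, an arginase, was at 5.08 and 5.47 CPM in control and 6.06 and 8.09 CPM in conditioned medium (edgeR adjusted p = 0.0952). Ass1 lost its call by DESeq2 (adjusted p = 0.268), without control replicate 2 (edgeR adjusted p = 0.118) and without conditioned medium replicate 1 or 2 (0.209 and 0.172). Glul lost its call without conditioned medium replicate 1 or 2 (edgeR adjusted p = 0.0516 and 0.129), Glud1 without conditioned medium replicate 2 (log2 fold change -0.11, adjusted p = 0.414) and by DESeq2 (0.0865). Phgdh was not called in 8 of 13 alternatives, among them limma-voom (adjusted p = 0.0510) and each library left out but control replicate 2 (up to 0.304). The list's calls were 5 by DESeq2, and 4 and 3 without conditioned medium replicate 1 and 2.

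Of 20 tested genes for amino acid transport outside the 7 families, with regulators, 2 rose and 2 fell, 20% called beside 16.8% of all genes. Slc25a29, a mitochondrial carrier of basic amino acids, rose from 5.01 and 5.89 CPM to 9.67 and 8.04 CPM (edgeR adjusted p = 0.00579), and Nedd4l, a ubiquitin ligase of membrane transport proteins, by 0.24 ± 0.06 on the log2 scale. Slc7a11, the xCT light chain that also pairs with CD98, was at 187 and 185 CPM in control and 144 and 161 CPM in conditioned medium, and Sgk1, a kinase that stimulates several carriers, was at -0.15 ± 0.05 (edgeR adjusted p = 0.0319). These calls numbered 1 by DESeq2, 7 without control replicate 2, and 0 and 2 without conditioned medium replicate 1 and 2. DESeq2 did not call Slc25a29 (adjusted p = 0.0765) or Nedd4l (0.114). Without conditioned medium replicate 1 Slc25a29, Slc7a11 and Nedd4l were not called (edgeR adjusted p = 0.128, 0.0861 and 0.206), nor Nedd4l without replicate 2 (0.0552). Sgk1 was not called without conditioned medium replicate 1 or 2 (edgeR adjusted p = 0.263 and 0.244), by DESeq2 (0.233), with no count filter (0.0624) or with upper-quartile scaling (0.0515).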

How the data were processed

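The deposited file holds raw counts by Entrez gene for 4 RNA-seq libraries, made with the TruSeq RNA kit named in the labels. That kit is not known to mark strand, so reads where genes overlap may not be told apart. Overlaps were taken from whole gene spans, introns included, and how many reads they share was not measured. Beside the overlaps named with the values, Slc1a6 overlaps Ccdc105 and Slc43a2 overlaps Mir3971, which had almost no counts, and Slc6a6, Slc6a8, Slc38a1, Slc38a4, Slc38a9, Slc38a10 and Slc7a14 overlap predicted genes that are not analysed here. Per the submitters' processing notes the tools were STAR 2.5.2b and featureCounts of Subread 1.4.6-p1 on mm10, with settings and annotation not given in the sources used here. Symbols came from RefSeq genes of GRCm38.p6, the same build, for 25275 of 27179 rows, and exon lengths from GENCODE M21. The counts were fitted with edgeR 4.0.16 (R 4.3.3) on group alone, after filterByExpr (minimum count 10, total 15) and TMM scaling (factors 0.987 to 1.01), with 2 residual degrees of freedom and Benjamini-Hochberg adjustment over 13897 genes. Each SE was obtained from the F statistic, whose root divides the absolute fold change in log2. The test shares spread between genes, with a median of 18.0 prior degrees of freedom beside the 2 residual ones. Each p-value and interval therefore rests mostly on spread pooled over genes and less on the gene's own libraries. The labels name no separate cultures, so p-values measure the spread between these samples, which may be technical. The members and lists were chosen with earlier results of these data known, and the transport systems with the values known. Named genes are all tested members, the 3 called with the largest change in each related list, and Slc7a11, Asns, Atf4, Arg2 and Nos3. Other called genes, Slc7a8, Slc43a1 and the members at 0 were named after their values were seen. The alternatives were scaling by RLE, upper quartile or library total, a 1 CPM filter or none, a replicate block, a robust spread, DESeq2 1.42.0, limma-voom 3.58.1 and each library left out. A count of amino acid carriers alone was added with the results in view. The fit was also run on counts simulated from its own means and spread. That run checks the code and cannot show how the test performs on these libraries. Some items are not reported here. CPM floors cover counting error only. Of the other marker lists, summed levels in control and conditioned medium were 229 and 238 against 244 and 242 CPM for smooth muscle, nearly all of it Smtn, 25.7 and 28.0 against 32.6 and 32.9 CPM for fibroblasts, nearly all of it Pdgfra, 6.98 and 7.94 against 9.96 and 9.48 CPM for epithelium, and at most 0.433 CPM for lymphocytes. Their part in the differences was not tested.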

Additional observations from a re-analysis of the deposited data

How the results depend on the processing

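Leaving out each library in turn gave 569 to 3107 called genes in all, 3 to 10 called members, 1 to 8 sensing genes, 3 to 8 enzymes and 0 to 7 genes of other amino acid transport. The low ends came without a conditioned medium library. DESeq2 called 918 genes, 6 members, 1 sensing gene, 5 enzymes and 1 gene of other transport. Other scalings, other filters, a robust spread and limma-voom called 8 to 10 members, and 7 were called when carriers of other solutes were not counted. The groups share replicate numbers, but deviations of same-numbered libraries did not correlate (r = -0.01 across genes), so the numbers were not taken to pair the libraries. With the replicate block 2671 genes, 11 members, 8 sensing genes, 8 enzymes and 6 genes of other transport were called. Directions turned only in genes that were not called, when 1 library was left out: log2 fold changes ran from -0.050 to 0.13 for Slc36a4, from -0.12 to 0.091 for Slc38a6, from -0.39 to 1.72 for Slc7a14 and from -0.16 to 0.017 for Atf4. The cause of these differences was not tested. Of 648 recomputed values for single genes 564 kept their direction and, where an adjusted p was given, their side of the threshold. DESeq2 gave no adjusted p for some genes of low count, such as Slc1a6, Slc1a7 and Slc3a1. Depth limits the rarest carriers, such as Slc7a14 and Slc1a7.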
